A study of Mus musculus with 7 samples.

Results

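The genes described here encode the RUNX transcription factors Runx1, Runx2 and Runx3 and their shared partner Cbfb. Their open chromatin regions (OCRs) were taken from bulk ATAC-seq of HPC7, a mouse hematopoietic progenitor cell line that grows in stem cell factor. ATAC-seq cuts accessible DNA with the Tn5 transposase, and a peak of cuts marks an OCR. The series holds 7 libraries of 1 condition, with no treatment given in the labels, named HPC7-1, HPC7-2 and HPC7-4 to HPC7-8, each from its own culture batch by the study's methods. Peak names carry the prefix VD in HPC7-1, HPC7-2 and HPC7-4 and EtOH in the other 4 libraries, which the labels do not explain, and each difference given below as higher or lower in 7 of 7 libraries holds within both sets. Every OCR that overlapped the gene body of a member or the 50 kb on either side of it was taken (mm10, GENCODE M21). This gave 219 of the 144931 OCRs that remained when overlapping peaks of the 7 libraries were merged, with 64 at Runx1, 84 at Runx2, 43 at Runx3 and 28 at Cbfb.

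RUNX proteins bind DNA through the Runt domain, and Cbfb, which does not bind DNA itself, holds that domain in its binding state. Runx1 is needed for blood stem cells to form in the embryo and is a frequent target of mutation and translocation in leukemia. Runx2 directs bone formation, and Runx3 acts in T cells and sensory neurons. Each Runx gene has a distal promoter, P1, and a proximal promoter, P2, which give proteins that differ at the N-terminus, and Runx1 is known for enhancers inside its long introns.

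The label of the cells was checked against promoters of marker genes. A peak in all 7 libraries lay within 1 kb of a transcript start of 10 of 10 blood progenitor markers, including Kit, Cd34, Spi1 and Tal1. Of 18 markers of other cell types, 14 had no peak there in any library, whereas Sp7 and Snap25 had one in all 7. Of all protein-coding genes, 55.9% had such a peak. The lists held 84593 (HPC7-6) to 132852 (HPC7-1) peaks. Peak intensity is the deposited fold enrichment at the summit, the pileup of reads over the background of the library. That background, recovered from the spacing of the values, was a pileup of 4.44 (HPC7-2) to 20.4 reads (HPC7-1). To compare libraries of unequal depth, intensity was also given as the percentile among all peaks of the same library, with 0 where no peak was listed.

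Runx1 lies on the minus strand of chromosome 16 (chr16:92601466-92826149), with P1 at 92826149 and the P2 starts between 92696125 and 92697328. The 200 bases before the first start of each promoter are shown because the promoters differ in CpG content and in peaks. P1 is chr16:92826150-92826349 and P2 is chr16:92697329-92697528, both on the minus strand and read 5′ to 3′ from the GRCm38 genome. Capitals mark CpG dinucleotides.
Runx1 P1: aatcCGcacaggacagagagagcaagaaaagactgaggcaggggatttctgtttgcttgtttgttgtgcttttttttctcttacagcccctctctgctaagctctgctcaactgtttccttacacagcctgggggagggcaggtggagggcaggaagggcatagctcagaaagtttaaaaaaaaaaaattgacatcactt
Runx1 P2: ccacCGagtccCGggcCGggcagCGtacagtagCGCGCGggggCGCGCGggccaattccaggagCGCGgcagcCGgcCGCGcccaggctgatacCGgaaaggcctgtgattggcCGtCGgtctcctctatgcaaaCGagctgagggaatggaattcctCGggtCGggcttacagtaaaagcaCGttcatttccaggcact
The P1 stretch held 1 CpG and the P2 stretch 22. Over 500 bases on either side of the start, the GC content was 46.9% at P1 and 61.9% at P2, and the ratio of observed to expected CpG was 0.310 and 0.865.

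The strongest OCR of the Runx1 locus spanned P1 (chr16:92821502-92827458, 5957 bp). Its fold enrichment was 115 at the lowest, 169 at the median and 209 at the highest of the 7 libraries, which placed it between percentiles 98.3 and 99.1 of all peaks. It was therefore among the most intense peaks of every library. Its summit was not at P1. In all 7 libraries it lay 3.8 kb downstream of the start, within 7 bp, in intron 2 of the P1 transcript Runx1-201. In HPC7-2 and HPC7-8 the region was listed as separate peaks, and there P1 had a peak of its own with its summit 0.041 and 0.089 kb into the gene. That peak had a fold enrichment of 36.0 in HPC7-2 and 37.4 in HPC7-8 (percentiles 85.1 and 86.8), whereas the +3.8 kb peak had 146 and 169 in the same libraries. In the other 5 libraries the list gives 1 summit for the whole region, so the height at P1 itself is not known there.

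No peak was listed at P2 in any of the 7 libraries. The nearest OCR lay 4631 bp upstream of the P2 starts (chr16:92701959-92702387) and was weak, with a fold enrichment of 2.91 at the lowest, 3.29 at the median and 4.81 at the highest, although it was listed in all 7 libraries. P2 lay inside the longest stretch without an OCR at the locus, 39.9 kb (chr16:92662098-92701958). The kilobase around the first P2 start held 0 unknown bases, and 6.89% of it was masked as repeats, so the reference sequence there is complete. Among promoters grouped in the same way over the genome from starts of CCDS transcripts (the consensus coding set), 43.7% of 23401 had no peak in any library. Among the CpG-rich promoters, of which P2 is 1 (at least 50% GC and an observed to expected ratio of at least 0.6), the share was 15.8% of 10195. Of the 7 promoters of the members, Runx1 P2 was the 1 without a peak. Of 1254 genes with several such promoters, at least 1 of them with a peak in all 7 libraries, 50.9% had another promoter with no peak in any library, as Runx1 did and Runx2 did not.

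The difference between Runx1 P1 and P2, counting any peak that reached within 1 kb of a start, was 95.1 ± 6.28 percentile points (SD, n = 7). Since P2 stood at 0 in every library, any peak at P1 fixes the sign, so the 7 of 7 libraries with P1 higher and the exact permutation p of 0.0156 restate the lack of a P2 peak and give no separate evidence. Counting only peaks with their own summit within 1 kb, P1 had a peak in 2 of 7 libraries. The difference was then 24.6 points, with P1 counted as 0 where the peak over it has its summit 3.8 kb inside the gene. The value of P1 thus rests on a region whose summit is 3.8 kb inside the gene. For P2 the summit rule decides nothing, since it counts a subset of the same peaks. With the nearest OCR 4631 bp away, P2 also had no peak within 3 kb.

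**Figure D1:**
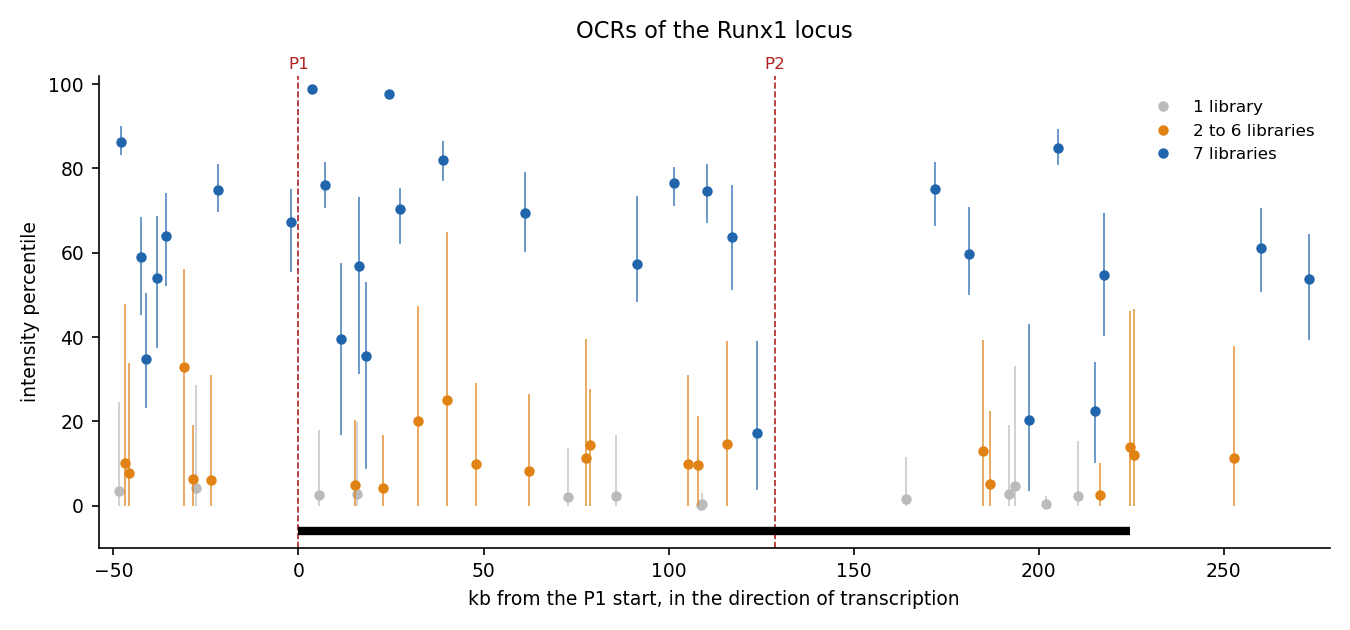
OCRs of the Runx1 locus by distance of the summit from the P1 start (x axis, kb, in the direction of transcription) and intensity percentile (y axis). Points are means over the 7 libraries with 0 where no peak was listed, lines run from the lowest to the highest library, colours give the number of libraries with a peak, the black bar is the gene, and dashed lines mark P1 and P2. The highest OCRs lie at +3.8 and +24.4 kb, and no OCR lies at P2.

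Outside promoters, Runx1 had 61 OCRs, 26 of them in all 7 libraries. All summits within the gene were intronic (45 of 64 OCRs), and 19 lay outside it. The 3 highest OCRs outside promoters by mean percentile are shown with the +3.8 kb summit, which was added after its values had been seen, as 100 bases on either side of the summit on the minus strand. The windows are chr16:92822270-92822470 (+3.8 kb from P1), chr16:92801676-92801876 (+24.4 kb), chr16:92874092-92874292 (-48.0 kb, upstream of P1) and chr16:92620927-92621127 (+205.1 kb). Capitals mark motif letters on either strand. The letters searched were TGTGGT and likewise TGCGGT for RUNX, GGAAGT for ETS factors, AGATAA for factors of the GATA family, CAGCTG and likewise CAGATG for E-boxes, and TTGCAAC and likewise TTGCGCAA for C/EBP.
Runx1 +3.8 kb: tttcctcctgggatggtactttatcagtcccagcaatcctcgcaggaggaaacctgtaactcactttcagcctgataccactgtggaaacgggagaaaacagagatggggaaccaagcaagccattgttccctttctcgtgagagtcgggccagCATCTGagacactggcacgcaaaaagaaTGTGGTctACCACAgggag
Runx1 +24.4 kb: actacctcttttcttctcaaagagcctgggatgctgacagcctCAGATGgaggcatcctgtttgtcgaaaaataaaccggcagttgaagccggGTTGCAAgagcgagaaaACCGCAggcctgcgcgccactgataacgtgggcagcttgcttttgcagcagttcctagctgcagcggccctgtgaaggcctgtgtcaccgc
Runx1 -48.0 kb: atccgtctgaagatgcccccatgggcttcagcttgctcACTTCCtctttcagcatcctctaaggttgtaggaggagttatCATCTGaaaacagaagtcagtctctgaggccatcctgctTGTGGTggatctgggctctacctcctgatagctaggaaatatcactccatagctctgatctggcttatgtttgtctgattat
Runx1 +205.1 kb: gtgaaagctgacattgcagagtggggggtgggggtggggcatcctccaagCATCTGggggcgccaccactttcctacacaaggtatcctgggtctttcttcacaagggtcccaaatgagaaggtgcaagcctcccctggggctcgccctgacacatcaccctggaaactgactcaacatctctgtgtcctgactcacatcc
The +3.8 kb window held 2 RUNX matches and 1 E-box match, with the RUNX matches on opposite strands near its 3′ end. The +24.4 kb window held 1 RUNX, 1 E-box and 1 C/EBP match. The -48.0 kb window held 1 RUNX, 1 ETS and 1 E-box match, and the +205.1 kb window 1 E-box match. A match is a description of the letters and shows no binding.

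The +24.4 kb OCR (chr16:92799685-92802661, intron 2) was the strongest at Runx1 outside promoters. It lies in the part of the intron where the blood stem cell enhancer eR1 has been described, although the peak lists name no enhancers. Its fold enrichment was 93.4 at the lowest, 140 at the median and 166 at the highest library. It reached percentiles 96.9 to 98.5 and ranked 277 of 118335 OCRs outside promoters by mean percentile. In each library its fold enrichment was below that of the +3.8 kb summit.

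The next OCRs were weaker in every library. The -48.0 kb OCR, upstream of P1 within the noncoding gene Gm49723, had fold enrichments of 26.3, 36.4 and 52.7 at the lowest, median and highest library. The +205.1 kb OCR in intron 6, near the 3′ end of the gene, had 21.6, 35.1 and 44.3. The +39.0 kb OCR in intron 2 had 16.7, 24.3 and 34.5. These ranges overlapped one another, and all 3 lay below every library's value at +24.4 kb. The other 6 of the 10 highest lay at +101.5, +7.1, +172.1, -21.8, +110.4 and +27.5 kb, with mean percentiles from 76.6 down to 70.4. Of these, 4 were in intron 2, the +172.1 kb OCR was in intron 5 and the -21.8 kb OCR was upstream of the gene.

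**Figure D2:**
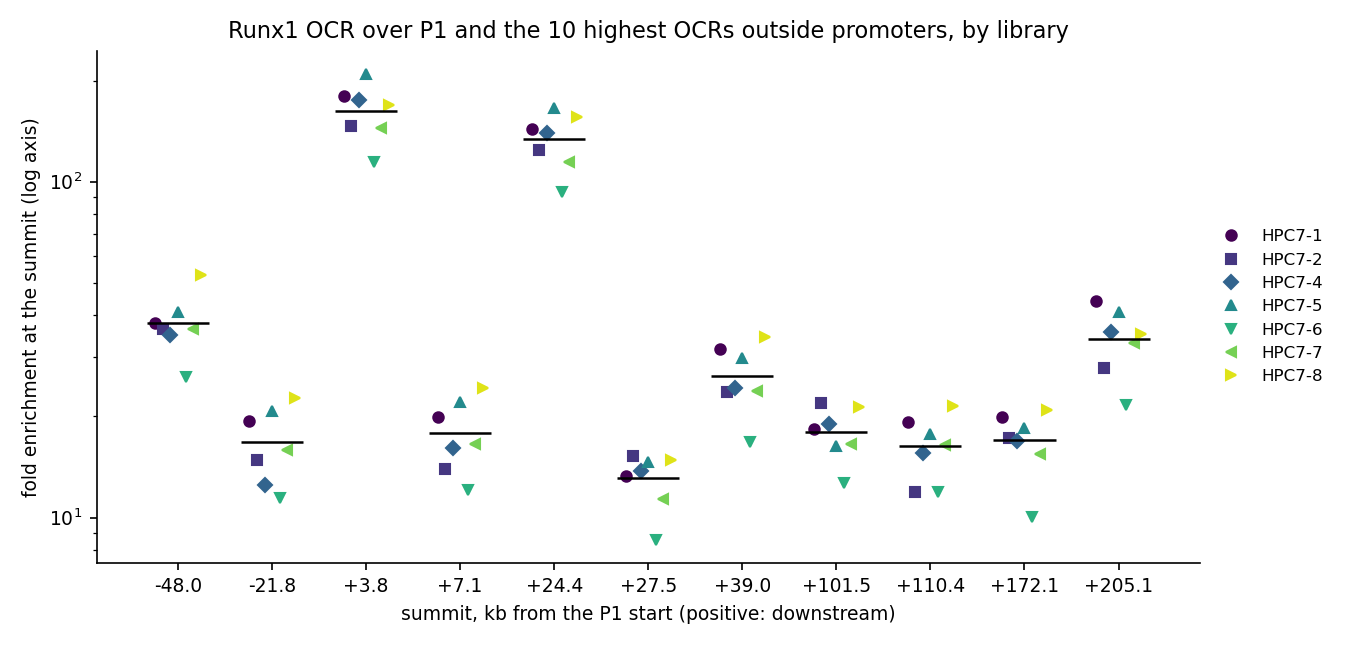
Fold enrichment (y axis, log) in each of the 7 libraries for the OCR over P1 and the 10 highest Runx1 OCRs outside promoters, ordered by the distance of the summit from P1 (x axis, kb). Horizontal lines are means. The OCRs at +3.8 and +24.4 kb stand above the other 9 in every library, and HPC7-6 is the lowest library at each of the 11 OCRs.

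Runx1 OCRs were unevenly placed along the gene. The 129 kb between P1 and P2 held 31 OCRs (24.1 per 100 kb), 14 of them in all 7 libraries and 5 with a mean percentile of at least 75. The 95.9 kb from P2 to the 3′ end held 14 (14.6 per 100 kb), 6 in all libraries and 2 at or above percentile 75. The 50 kb upstream of P1 held 14 OCRs and the 50 kb downstream of the gene 5. Among these, an OCR near a start of Gm49723 (upstream) and an OCR near a start of Gm49722 (downstream) were in all 7 libraries. Their mean percentiles were 64.1 and 53.8. The highest intensities thus lay on the P1 side of P2.

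Runx2 lies on the minus strand of chromosome 17 (chr17:44495987-44814797) and had peaks at both promoters. P1 was weak, with fold enrichments of 4.54, 5.82 and 7.57 at the lowest, median and highest library (percentiles 34.8 to 62.5). P2, whose OCR also covers the start of the antisense transcript Runx2os1, had 45.4, 77.6 and 90.4 (percentiles 89.7 to 94.7). The ranges of the 2 promoters did not overlap. The difference P1 minus P2 was -46.1 ± 8.51 percentile points (SD, n = 7), with P2 higher in 7 of 7 libraries (p = 0.0156 by an exact permutation of signs over the libraries, two-sided, the smallest that 7 libraries can give, and adjusted p = 0.0193 over the 21 pairs of promoters). The Runx1 pair pointed the other way, since there the peak was on the P1 side.

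The most intense OCR of Runx2 outside promoters lay at +160.1 kb from P1 in intron 6 (chr17:44653852-44655390). Its fold enrichment was 118 at the lowest, 180 at the median and 215 at the highest library, and its summit moved by 3 bp over the libraries. It ranked 90 of 118335 OCRs outside promoters, and in each library it was above Runx2 P2. The +142.3 kb OCR in intron 5 (chr17:44671682-44675010) had 72.9, 85.3 and 114, and the +108.2 kb OCR in the same intron (chr17:44706117-44707582) had 31.6, 39.5 and 57.1. All 3 lay downstream of P2, in the 241 kb to the 3′ end that held 64 of the 84 Runx2 OCRs and 12 of the 13 with a mean percentile of at least 75, the OCR of P2 included. The remaining 1 of the 13 was the promoter of Supt3, a subunit gene of the SAGA coactivator complex that overlaps Runx2, with percentiles of 99.1 to 99.5. Runx2os2 and n-R5s27 also had starts with OCRs in the gene.

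Runx3 lies on the plus strand of chromosome 4 (chr4:135120652-135177990), and both promoters had a peak in all 7 libraries. P1, whose OCR also covers a start of Gm16225, had fold enrichments of 137, 173 and 261 at the lowest, median and highest library (percentiles 98.6 to 99.5). P2 had 28.8, 39.6 and 54.5 (percentiles 84.3 to 90.8). P1 exceeded P2 by 11.8 ± 2.28 percentile points (SD, n = 7) in 7 of 7 libraries (exact permutation p = 0.0156, adjusted p = 0.0193). The Runx3 P2 start is that of Runx3-202, which carries no CCDS tag.

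The 3 highest Runx3 OCRs outside promoters all lay downstream of the gene. The +85.7 kb OCR (chr4:135205216-135207233) had fold enrichments of 68.2, 101 and 144 at the lowest, median and highest library and ranked 559 of 118335. The +58.7 kb OCR (chr4:135174794-135180730), which begins over the 3′ end of the gene, had 28.9, 41.1 and 60.1, and the +72.4 kb OCR (chr4:135192633-135193610) had 26.9, 41.3 and 71.2. The last 2 overlapped each other and lay below the first in each library. Between P1 and P2, 11 OCRs were listed, of which 1, that of P2, was in all 7 libraries.

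Cbfb lies on the plus strand of chromosome 8 (chr8:105170674-105217989) and had the highest promoter of the members by mean percentile. The OCR over its start (chr8:105168898-105172429) had fold enrichments of 146, 209 and 229 at the lowest, median and highest library and percentiles of 99.2 to 99.7. The 6 OCRs with their summit inside the gene had mean percentiles of at most 39.1, and 1 of them was in all 7 libraries. The 3 highest OCRs outside promoters lay outside the gene, at -49.5 kb (fold enrichment 20.6, 34.0 and 41.2 at the lowest, median and highest library), at +96.4 kb within Fbxl8 (10.8, 13.0 and 19.9) and at -12.4 kb (5.79, 10.8 and 13.5). The other intense OCRs of the window were promoters of neighbours, D230025D16Rik, B3gnt9, and Fbxl8 with Tradd, with mean percentiles of 96.5, 96.3 and 92.0. Further peaks of 3 or fewer libraries lay near starts of Gm3830, Gm22063 and Tradd. The OCR over the Cbfb start also lay within 1 kb of a start of Gm22063.

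**Figure D3:**
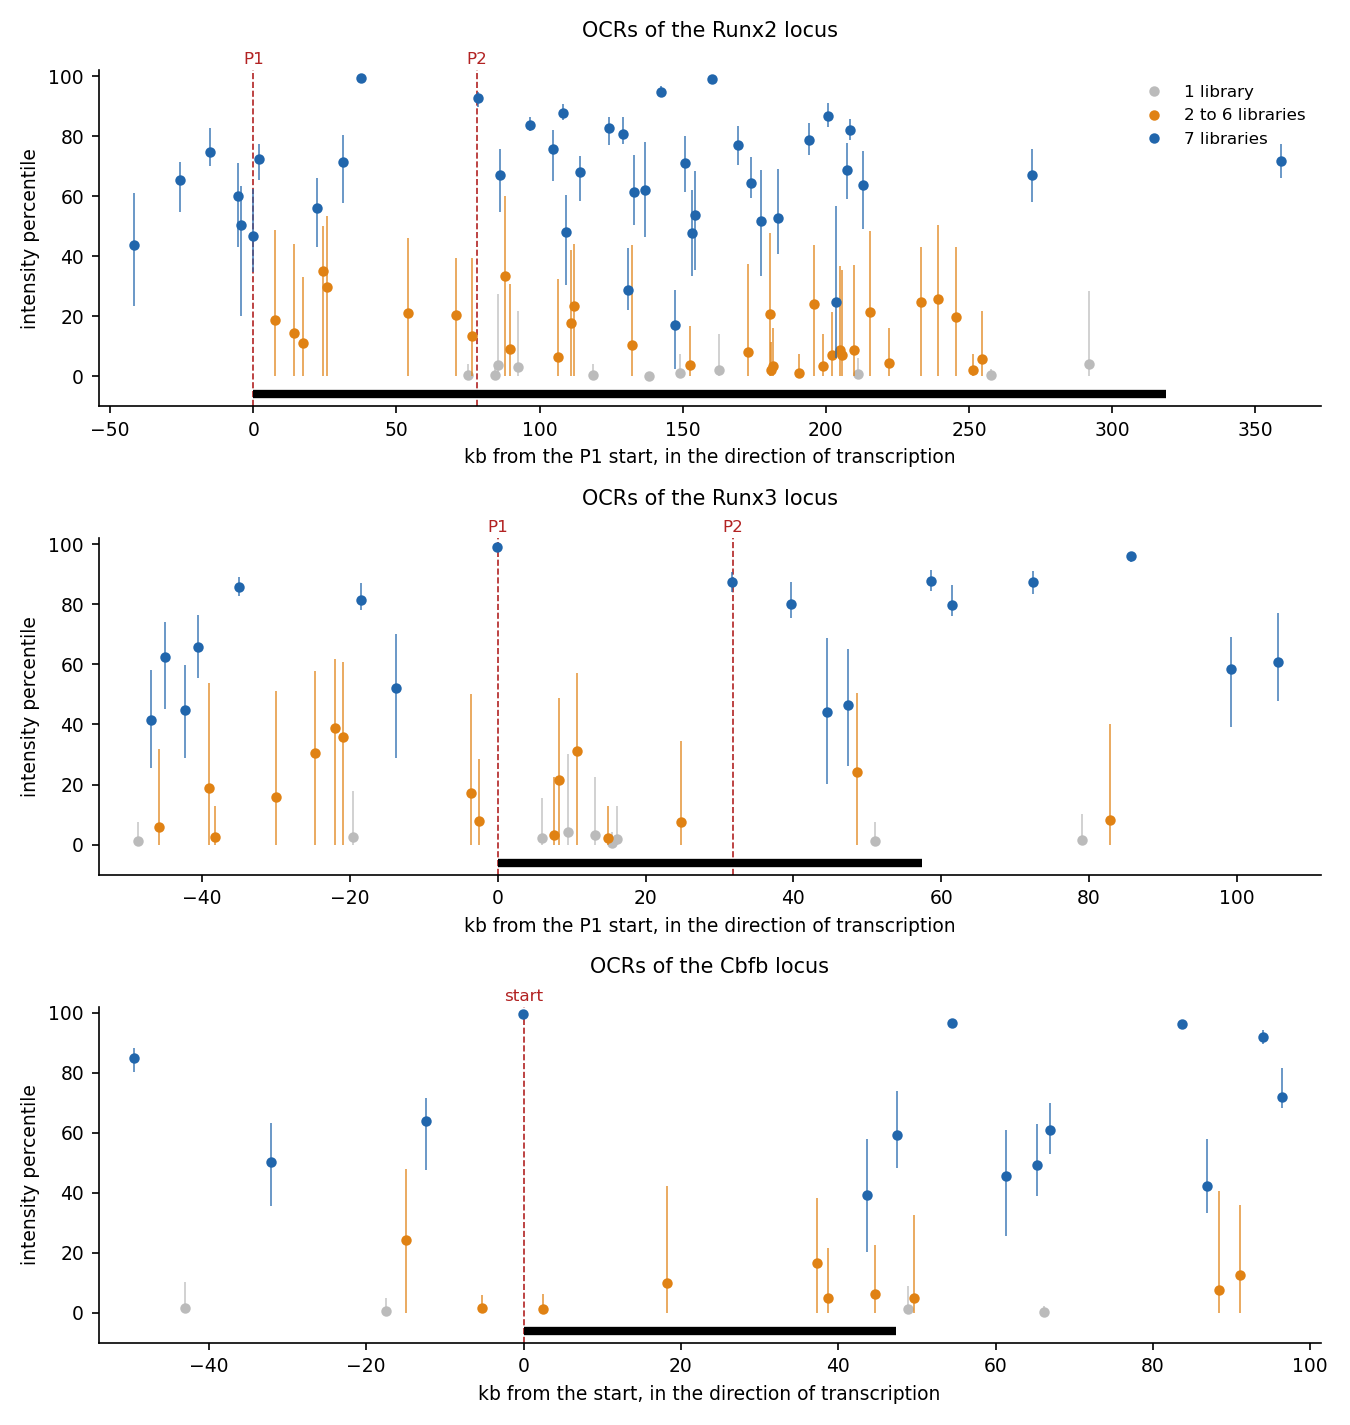
OCRs of the Runx2, Runx3 and Cbfb loci by distance of the summit from the P1 start or the Cbfb start (x axes, kb, in the direction of transcription) and intensity percentile (y axes), drawn with the same points, lines and colours as for Runx1. The 3 highest Runx2 OCRs outside promoters lie beyond P2, the highest Runx3 OCRs outside promoters lie beyond the gene, and the OCRs with their summit inside the Cbfb gene lie at a mean percentile of 39.1 or below.

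The highest OCR outside promoters of each of these 3 loci is shown for comparison with Runx1, as 100 bases on either side of the summit on the strand of the gene, with capitals as above. The windows are chr17:44654621-44654821 (minus strand), chr4:135206297-135206497 and chr8:105121067-105121267 (plus strand).
Runx2 +160.1 kb: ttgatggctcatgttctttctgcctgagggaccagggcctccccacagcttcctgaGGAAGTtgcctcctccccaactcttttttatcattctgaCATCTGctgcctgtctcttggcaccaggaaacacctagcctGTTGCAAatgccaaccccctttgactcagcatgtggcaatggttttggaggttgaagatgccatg
Runx3 +85.7 kb: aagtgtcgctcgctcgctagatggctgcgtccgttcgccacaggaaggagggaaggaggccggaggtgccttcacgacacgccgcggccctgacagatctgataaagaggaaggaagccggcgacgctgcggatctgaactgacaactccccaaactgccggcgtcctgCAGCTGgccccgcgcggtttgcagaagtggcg
Cbfb -49.5 kb: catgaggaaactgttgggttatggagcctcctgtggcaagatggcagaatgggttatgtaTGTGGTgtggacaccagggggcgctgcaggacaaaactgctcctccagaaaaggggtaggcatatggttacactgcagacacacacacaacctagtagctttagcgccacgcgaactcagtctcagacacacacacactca
The Runx2 window held 1 ETS, 1 E-box and 1 C/EBP match, the Runx3 window 1 E-box match and the Cbfb window 1 RUNX match. The Runx3 window held 21 CpGs and the Runx2 window 0. RUNX letters were thus in 3 of the 4 shown windows of Runx1, 1 of them added after its values had been seen. They were also in that of Cbfb, and not in those of Runx2 and Runx3. No share over all OCRs was taken at this width, so no contrast between loci is read from these windows. In the wider windows of all such OCRs described next, the share was 53.8% at Runx1 and 54.3% at Runx2.

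Over all 86 OCRs of the loci that lay outside promoters and were in all 7 libraries, 45 held a RUNX match in the 301 bases around the summit (52.3%). The share was 40.1% of the 49204 such OCRs in the genome. By locus, 14 of 26 held one at Runx1, 19 of 35 at Runx2, 6 of 16 at Runx3 and 6 of 9 at Cbfb. E-box letters were in 51.2% against 42.2%, ETS letters in 38.4% against 35.3%, GATA letters in 18.6% against 22.7% (a difference of -4.07 points that became 0.0213 with all merged OCRs as the background), and C/EBP letters in 3.49% against 2.2%. These shares are descriptions with no test over OCRs, and the motif families overlap where their letters do.

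The promoters were then ordered by mean percentile. Cbfb (99.4 ± 0.198) and Runx3 P1 (99.1 ± 0.351) were highest, followed by Runx1 P1 (95.1 ± 6.28), Runx2 P2 (92.6 ± 1.94), Runx3 P2 (87.4 ± 2.42), Runx2 P1 (46.6 ± 9.97) and Runx1 P2 (0), with SD over n = 7 libraries. Under the rule that counts only peaks with their own summit within 1 kb, Runx1 P1 falls to a mean of 24.6. That mean counts 0 in the libraries where the height at P1 itself is not known. In HPC7-2 and HPC7-8, where P1 had a peak of its own, it stood at 85.1 and 86.8. There Runx2 P1 stood at 34.8 and 54.8, Runx2 P2 at 91.5 and 94.2, and Runx3 P2 at 85.8 and 90.3. Runx1 P1 was thus above Runx2 P1 but below Runx2 P2 and Runx3 P2 in both, so its place in this order depends on the rule. Of the 21 pairs, 17 differed by the exact permutation test (adjusted p = 0.0193 each). The 6 pairs with Runx1 P2 were fixed by its value of 0 in every library, and of the other 15 pairs 11 differed. The neighbours Cbfb and Runx3 P1 did not pass (exact permutation test, adjusted p = 0.0984), nor did Runx1 P1 against Runx3 P1 (0.0691), Runx2 P2 (0.359) or Runx3 P2 (0.0691). The wide spread of Runx1 P1 came from HPC7-2 and HPC7-8, where its peak was listed apart from the +3.8 kb summit.

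**Figure D4:**
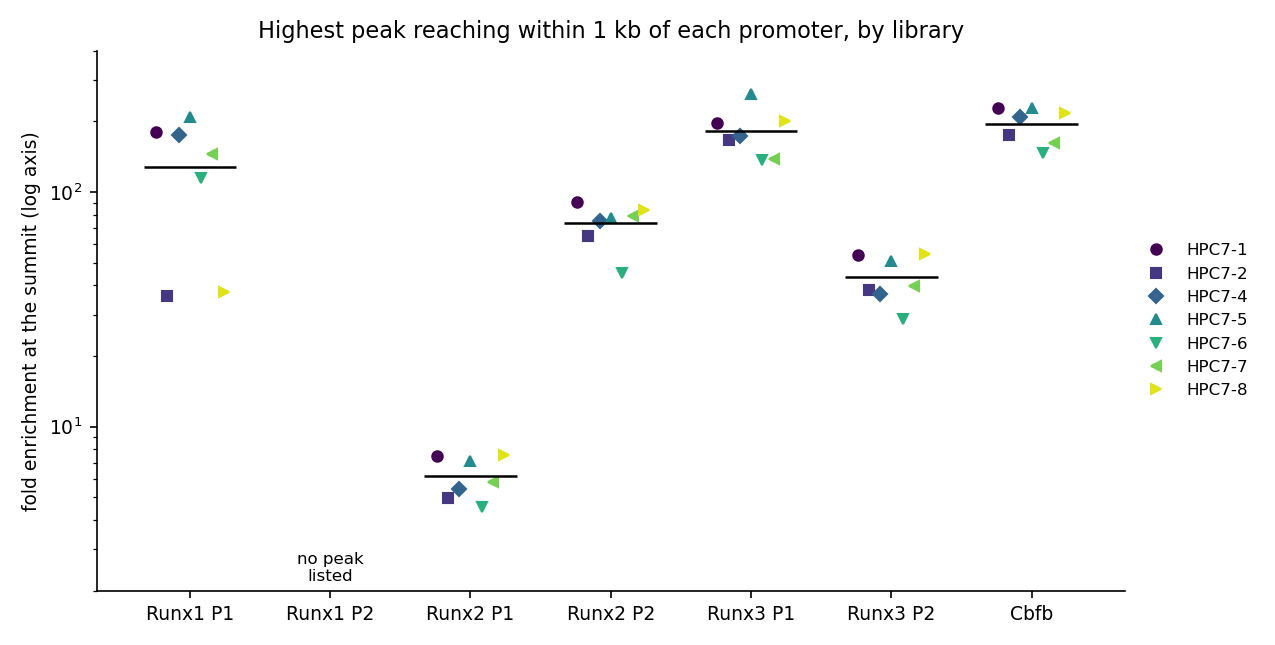
Fold enrichment (y axis, log) of the highest peak reaching within 1 kb of each promoter of the members (x axis) in each of the 7 libraries, with the mean as a horizontal line. Runx1 P2 has no peak, Runx2 P1 lies between 4.54 and 7.57, and the Runx1 P1 values of HPC7-2 and HPC7-8 lie near 36.0 and 37.4, below the other 5 libraries.

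The loci were compared in the number of peaks per 100 kb of window within each library. Runx1 had 33 peaks at the lowest, 43 at the median and 61 at the highest library, a density of 14.0 ± 2.79 per 100 kb (SD, n = 7). Runx3 was denser, with 21.8 ± 4.10 per 100 kb, with Runx1 lower in 7 of 7 libraries (Runx1 minus Runx3 -7.80 ± 2.07, exact permutation p = 0.0156, adjusted p = 0.0234 over 3 comparisons). Runx2, with 15.2 ± 2.64, was also above Runx1 in 7 of 7 libraries (Runx1 minus Runx2 -1.22 ± 0.934, exact p = 0.0156, adjusted p = 0.0234). Cbfb, with 13.7 ± 2.43, did not differ from Runx1 beyond the spread of the libraries (difference 0.318 ± 0.863, Runx1 higher in 5 of 7, exact p = 0.359). These differences depend on the window and the peaks used. Runx1 minus Runx2 stayed negative but was -3.63 with no flank, -1.90 with equal numbers of peaks and -0.713 outside promoters. Runx1 minus Cbfb was 4.17 with no flank and -1.56 with 100 kb of flank (exact permutation test, adjusted p = 0.0156 for each).

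**Figure D5:**
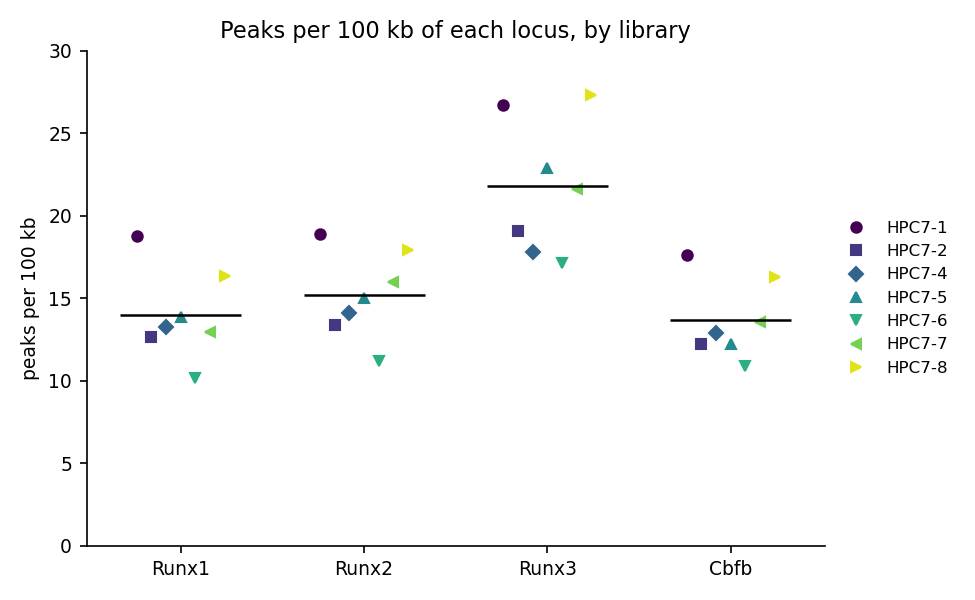
Peaks per 100 kb (y axis) of the Runx1, Runx2, Runx3 and Cbfb windows (x axis) in each of the 7 libraries, with the mean as a horizontal line. Runx3 is the densest in each library, and HPC7-6, the shortest list, is the lowest at each locus.

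OCRs outside promoters that were found in all 7 libraries were dense in the window of each member, its 50 kb flanks included. At Cbfb they lay mostly in the flanks: with promoters counted, 4 OCRs of all 7 libraries lay upstream, 1 in the gene body and 9 downstream. The number of such OCRs outside promoters per 100 kb was 8.01 at Runx1, 8.36 at Runx2, 10.2 at Runx3 and 6.11 at Cbfb. The median was 2.83 over the windows of 21951 protein-coding genes. The share of those genes at or below the member was 91.7%, 92.8%, 97.3% and 81.1%. Counting every OCR, the densities were 19.7, 20.1, 27.3 and 19.0 per 100 kb in the same order, against a median of 10.2. The share of genes at or below the member was then lower, at 80.5%, 81.3%, 94.0% and 78.8%. The intensity of all peaks outside promoters, ranked among such peaks of the same library, was summarised by its median at each locus. It was 50.2 ± 6.10 at Runx1 (lowest library 40.9, highest 57.3), 57.6 ± 5.16 at Runx2, 53.4 ± 5.51 at Runx3 and 50.4 ± 3.15 at Cbfb, where 50 is the middle of the library. None of the 4 passed the exact permutation test after adjustment over the loci (adjusted p = 0.922, 0.0625, 0.313 and 0.922), but with 7 libraries a single locus cannot go below 0.0625 when adjusted over 4. Runx2 was above 50 in 7 of 7 libraries with an unadjusted exact p of 0.0156, and it was the 1 locus of 4 below 0.05 without adjustment. These calls depend on the peaks and the window used. With each library cut to an equal number of peaks, Runx1 stood 11.0 and Runx2 10.5 points above 50, and with 100 kb of flank Runx2 stood 8.02 and Runx3 6.63 points above it (exact permutation test, adjusted p = 0.0313 for each). With peaks of a −log10 q of at least 5, Runx1 stood 8.34 points above 50 (exact permutation test, adjusted p = 0.0625). With no flank the direction turned at 3 loci, to -3.52 points from 50 at Runx1, -10.3 at Runx3 and -9.85 at Cbfb (exact permutation test, adjusted p = 0.344, 0.0625 and 0.0625).

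Of the 219 OCRs, 101 had a peak in all 7 libraries (46.1%), close to the 46.2% of all merged OCRs. Outside promoters the count was 86 of 200 (43.0%), beside 41.6% over all OCRs outside promoters. These shares are near the background, and nothing is read from them. By locus they were 29 of 64 at Runx1, 40 of 84 at Runx2, 18 of 43 at Runx3 and 14 of 28 at Cbfb. Of the 37 OCRs found in 1 library, 28 were found in HPC7-1, the longest list with the highest background, and the part of depth in this was not tested. The OCRs of all 7 libraries had a median percentile of 63.7 at Runx1, whereas those of fewer libraries had 18.1 where they were listed. Their summits lay within 200 bp of each other over the 7 libraries in 97 of 101. Across the 29 Runx1 OCRs of all libraries, fold enrichment in any pair of libraries correlated with a Spearman rho of 0.929 to 0.984, given as a description over OCRs of libraries that share the reference and the peak caller.

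Genes that work with RUNX factors were examined through their promoters, and the genes named here were chosen after their values were seen. Of 22 RUNX partners and corepressors, 21 had a promoter peak in all 7 libraries, beside 55.9% of all protein-coding genes. The median percentile was 95.5 over the 22, beside 74.6 over all protein-coding genes. The 21 included Kat6b (99.9 ± 0.0252), an acetyltransferase gene, and Sin3a (99.7 ± 0.0896), a corepressor scaffold gene. Tle2, whose family of corepressors binds the C-terminus of RUNX proteins, was the lowest of the 21 at 83.0. The exception was Runx1t1, the gene fused to RUNX1 in leukemia with no peak in any library. All 10 of the 10 factors that bind blood enhancers with Runx1 had a peak, from Lyl1 (99.9 ± 0.0696) to Gfi1b (87.3 ± 2.70). Of these, Tal1, Lyl1, Lmo2, Gata2, Spi1 and Myb were also among the blood progenitor markers above. Spi1, Myb and Gfi1b were also among the RUNX target genes in blood below. The counts of these lists are therefore not independent of each other.

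Of 20 RUNX target genes in blood, 17 had a promoter peak in all 7 libraries, with a wide range of intensity. Nfe2, a megakaryocyte and erythroid factor gene, reached percentile 99.7 ± 0.0509 and Itga2b, the platelet integrin gene, 97.7 ± 0.514. Csf1r, the macrophage growth factor receptor gene, had 35.2 ± 14.8 and Csf2, a cytokine gene, 35.1 ± 11.5. Cd4, Alox12 and Il3 had no peak. Of 7 RUNX2 target genes in bone, 3 had a peak in all libraries (Sp7, 80.7 ± 3.70, Spp1, 75.5 ± 4.40, and Col1a1, 71.7 ± 4.73), and Bglap, Ibsp, Alpl and Mmp13 had none. The lists are short, and their counts are given beside the 55.9% with no test.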

How the data were processed

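By the study's methods, the authors removed adapters (Cutadapt), mapped the reads to mm10 (BWA) and ran MACS2 on each library. Versions and options are not given in the sources used here. The deposited lists hold the fold enrichment (a ratio), the −log10 p-value and q-value, a score (10 times the −log10 q, cut to a whole number), and the summit. Fold enrichments were whole multiples of 1 step in each library (100% within 0.0002), which gave the pileup and background. No source states a scaling of the deposited fold enrichments between libraries, so they were ranked within each library. The numbering of peaks was unbroken in all 7 lists. Name prefixes (VD, EtOH) were not used to group libraries. A library HPC7-3 is not analysed here.

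Peaks were merged where they shared 1 bp. Promoters were CCDS starts grouped within 2 kb. Runx3 had 1 such group, so its P2 was taken from Runx3-202, a departure from the plan. Outside promoters means beyond 1 kb of any transcript start. Libraries, of separate culture batches, were the replicates in exact sign-flip permutation tests with Benjamini-Hochberg adjustment. Functions were tested on simulated data. Of 33 member transcripts, 33 matched the genome sequence. Named OCRs were those over a promoter of a member and, outside promoters, the 10 highest by mean percentile at Runx1 and the 3 highest at each other locus, with neighbouring genes named where a start had an OCR. The value of 1 marker gene is not reported here. The members and lists were chosen with earlier results of these data known. Alternatives covered promoter distance, thresholds on q (−log10 q of at least 5), equal list lengths (84593 peaks), flanks, measures of overlap, and each library left out. Python 3.11.15, pandas 2.3.3, numpy 2.4.6, pysam 0.24.0, samtools 1.23.1 and bedtools 2.31.1 were used.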

Additional observations from a re-analysis of the deposited data

How the results depend on the processing

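Of 192 alternative values, 163 kept their call or stayed close to the reported value, and 15 reversed. No paired analysis was possible because the series has 1 condition and so no groups that share replicate numbers. Promoters and loci were compared within each library. The P2 promoter of Runx1 had no peak, so its difference from P1 has no value on the log2 scale. Counting peaks by summits within 1 kb gave 24.6 for that difference, with P1 counted as 0 where it had no summit of its own. Log2 fold enrichment, which leaves out P2, gave 11 of 15 promoter pairs beside 17 of 21. CCDS promoters alone gave 12 of the 15 pairs that remain without Runx3 P2, and the other settings gave 17 or 18. The density of Runx1 minus Cbfb (0.318) kept its sign without each library in turn, at 0.098 to 0.488, and moved under the other 7 alternatives: 4.17 with no flank, -1.56 with 100 kb flanks, -2772 bp per 100 kb as base pairs covered, 3.66 outside promoters, -0.26 at −log10 q of at least 5, -0.847 with equal numbers of peaks and 2.40 outside promoters at that q. Of these 7, all but −log10 q of at least 5 alone (adjusted p = 0.484) passed the exact permutation test (adjusted p = 0.0156 to 0.0234). They passed in both directions, so the lack of a difference between Runx1 and Cbfb depends on the setting.

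Distal intensity relative to 50 became -3.52 (Runx1), -10.3 (Runx3) and -9.85 (Cbfb) with no flank. With 100 kb flanks it became 8.02 (Runx2) and 6.63 (Runx3), both past the threshold (exact permutation test, adjusted p = 0.0313). It was -0.571 for Runx1 beyond 3 kb, and -0.33 for Cbfb at −log10 q of at least 5. With equal numbers of peaks it was 11.0 (Runx1), 10.5 (Runx2) and -2.46 (Cbfb), the first 2 past the threshold (exact permutation test, adjusted p = 0.0313). Leaving out 1 library gave -0.942 to 1.81 for Runx1, negative without HPC7-2, HPC7-4 or HPC7-6, and -0.396 to 0.967 for Cbfb, negative without HPC7-2 or HPC7-8. OCRs shared by all libraries numbered 6 of 18 (Runx3) and 3 of 8 (Cbfb) with no flank, and 37 of 78 (Runx3) with 100 kb flanks. The reported values were 18 of 43 (Runx3) and 14 of 28 (Cbfb), beside 46.2% of all merged OCRs. The flank sets how many OCRs are counted, so these counts move with the window. At 50% reciprocal overlap, 26 of 79 (Runx2) and 10 of 42 (Runx3) peaks of HPC7-1 were shared. The cause of the other changes was not tested.

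The settings with summits within 1 kb, CCDS promoters alone, and −log10 q combined with promoters left out were chosen after seeing the data. Peak lists hold no reads, so an absent peak shows only that none passed the caller, which depends on depth. They give 1 summit for a merged peak, which hides the height at Runx1 P1 in 5 libraries.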
